A study of Mus musculus with 15 samples.

Results

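Dural macrophages of the second postnatal week were compared with the ages on either side: 3 libraries from postnatal day 10 (P10) against 3 from P3 and 3 from P21, 9 of the 15 libraries of the series. For each gene the contrast was the P10 level minus the mean of the P3 and P21 levels on a log2 scale. A contrast near 0 means a P10 level about midway between the levels of P3 and P21. In days, P10 is nearer to P3 than to P21. A steady rise per day on this scale therefore gives a negative contrast, and a steady fall a positive one. A gene was then described as above both ages where every P10 library lay above every P3 and P21 library, which held for 270 of 14683 tested genes, and as below both ages where every P10 library lay below all of them, which held for 241. The cells were sorted from dura mater for CD206, and the mice were C57BL/6J with the genotype Cx3cr1GFP/wt, so every age compared carried 1 allele of Cx3cr1, a chemokine receptor of macrophages, replaced by GFP. No treatment is named in the labels. The other 6 libraries came from the embryonic age E14.5 and P56, 3 each, with the same strain, genotype and sort. Per the series text, each age used 3 to 5 mice. Whether a library is 1 mouse or a pool is not given in the sources used here, so p-values measure the spread between these libraries, which may be partly technical.

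The dura is the outermost meninx and lies against the growing skull. Its resident macrophages take up debris and antigen, carry the mannose receptor CD206 (gene Mrc1), and share scavenger receptors such as Lyve1 and Cd163 with other macrophages of the brain's borders. Macrophages also keep a basal level of interferon-stimulated genes, a set of antiviral and sensing genes switched on by transcription factors downstream of interferon receptors. In bone, cells of the same lineage fuse into osteoclasts, which dissolve mineral with a proton pump and secreted acid hydrolases.

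The libraries held 17550170 to 30614583 counts each, and between 11254 and 13654 genes reached 10 counts. Levels of single genes are CPM, the count over the library size, scaled by the trimmed mean of M-values (TMM). The sorted identity was present in all 9 libraries: Mrc1 ran from 1640 to 3469 CPM and the pan-macrophage gene Adgre1 from 1291 to 2129 CPM. Correlations of log2 CPM over genes between libraries of 1 age were 0.899 to 0.925 at P3, 0.9 to 0.905 at P10 and 0.843 to 0.896 at P21. P21 replicate 2 stood apart from the other 8 libraries on the first principal component (28.3% of the variance). It also had the fewest genes at 10 counts or more, 11254. P21 replicate 1 stood apart on the second component (15.4%), at -132.2, with P21 replicate 3 the next lowest at -30.5.

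The contrast as a whole gave no gene past the threshold. With edgeR's quasi-likelihood test and Benjamini-Hochberg adjustment over all 14683 genes, 0 genes (0%) were higher and 0 (0%) were lower at P10 at an adjusted p under 0.05. At an unadjusted p under 0.05, 745 genes (5.07%) were higher and 758 (5.16%) lower. DESeq2 called 64 genes higher and 173 lower on the same table, and limma voom called 6 higher and 0 lower. Some DESeq2 calls had extreme log2 contrasts, such as -23.9 for Inmt, -22.7 for Evc and 21.9 for Mycbpap, beside 0.95 for Rgs2. Others were also moderate, such as -1.68 for Irf7, -0.85 for F13a1 and 0.65 for Gsto1. The limma voom calls were Rgs2 at 0.97, Atp6v1d at 0.68 and others at 5.53 to 6.83. Leaving out P21 replicate 2, which stood apart on the first component, edgeR called 1 gene higher and 0 lower. Leaving out P21 replicate 1, which stood apart on the second, it called 0 and 0. The smallest adjusted p was 0.0739, for Rgs2, and 4 genes were under 0.1, with 2 higher and 2 lower, among them Rgs2 and Atp6v1d (higher) and Tsc22d3 (lower). The median contrast over all genes tested was 0.03.

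A stricter reading asked for a change against each neighbour separately. In the same fit, 50 genes were higher and 9 lower at P10 than at P3, and 27 were higher and 141 lower at P10 than at P21. Both tests were passed in the upward direction by 2 genes, Rgs2 and Atp6v1d (0.0136% of those tested), and in the downward direction by 0 (0%). At an unadjusted p under 0.05 in both tests, 89 genes were higher and 240 lower, and the counts at an adjusted p were 6 and 50 with DESeq2 and 6 and 2 with limma voom. The pair of tests shares the P10 libraries.

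The genes above both ages were 1.84% of those tested and the genes below both ages 1.64%. Of the 270 above, 160 had an unadjusted p under 0.05 in the contrast, and of the 241 below, 201 did, but the position and the contrast rest on the same libraries. Median log2 differences of the genes above both were 0.54 against P3 and 0.71 against P21, and those of the genes below both were -0.74 and -0.83. The step toward P21 was the larger step in 186 of the 270 and in 152 of the 241. The genes above both had a median P10 mean of 38.7 CPM, and 34 of them were predicted gene models. The genes below both had a median of 48.0 CPM in their lower neighbour, and 7 were predicted models. Against a single neighbour, 10 of the 270 passed at least 1 pairwise test, 9 of them against P21. Among the 241, 32 did, 29 of them against P21.

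Among genes of at least 20 CPM, the one nearest the boundary on the inside above both was Srm, with a lowest P10 value of 91.3 CPM and a highest neighbour value of 91.2 CPM. Coq8a lay just outside, at 48.8 and 48.9 CPM. Below both, the highest P10 and the lowest neighbour value of Mat2a, just inside, both round to 357 CPM, and those of Ganab, just outside, to 73.5 CPM.

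**Figure D1:**
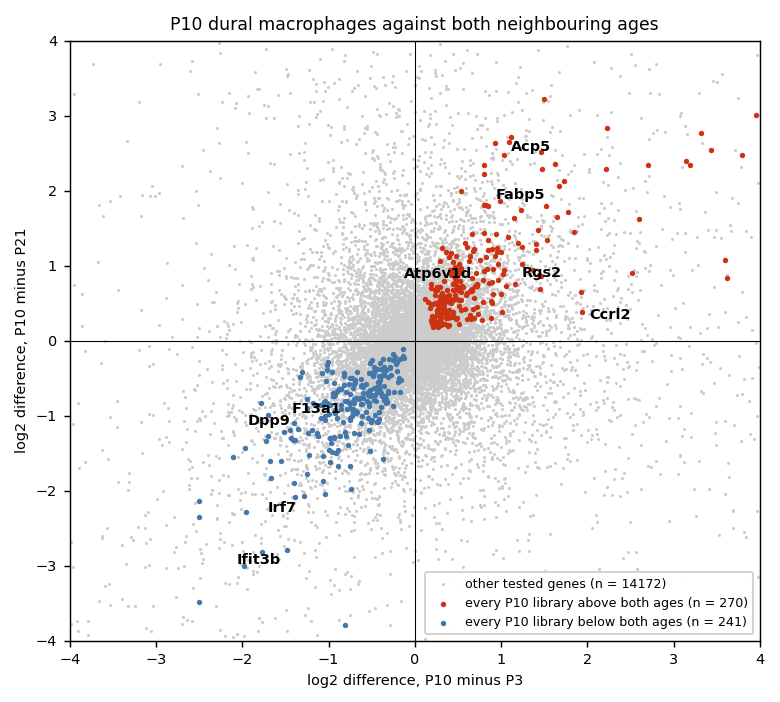
Each point is a tested gene, placed by its fitted log2 difference P10 minus P3 (x axis) and P10 minus P21 (y axis); red points are the 270 genes with every P10 library above both ages, blue points the 241 with every P10 library below both, grey points the rest. Axes stop at 4 in each direction and leave out 1105 genes, 21 of them above both and 14 below both; the named red genes sit in the upper right and the named blue genes in the lower left.

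Rgs2 gave the smallest p of the contrast. It encodes a regulator of G-protein signalling that speeds GTP hydrolysis by G-alpha subunits. Its level was 329, 358 and 297 CPM at P3, 674, 785 and 735 CPM at P10 and 367, 569 and 369 CPM at P21. All 3 P10 libraries lay above the other 6, with P21 replicate 2 the nearest. Rgs2 rose from P3 to P10 by 1.16 on the log2 scale (edgeR adjusted p 0.0055) and was 0.75 higher at P10 than at P21 (adjusted p 0.0365), while the contrast itself was 0.95 ± 0.13 (SE, n = 3 libraries per age, edgeR adjusted p 0.0739). The P56 libraries, at 732, 656 and 765 CPM, overlapped those of P10. P56 came from a different sequencing project than the other ages, so age and project cannot be told apart there. Without P21 replicate 2 the contrast of Rgs2 passed the test, with an edgeR adjusted p of 0.000908. The call in both pairwise tests was lost without any 1 of P3 replicates 1 and 2, P10 replicates 1, 2 and 3 and P21 replicates 1 and 3.

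Atp6v1d was the other gene past both pairwise tests. It encodes subunit D of the V1 sector of the vacuolar proton pump, which acidifies lysosomes. Its level was 187, 182 and 168 CPM at P3, 288, 309.8 and 256 CPM at P10 and 206, 168 and 154 CPM at P21. The P10 libraries stood clear of both neighbours, which overlapped each other, and also of E14.5 (129, 141 and 122 CPM) and P56 (166, 144 and 153 CPM). Atp6v1d was 0.67 higher than at P3 (edgeR adjusted p 0.0457) and 0.69 higher than at P21 (adjusted p 0.0257), and its contrast was 0.68 ± 0.11 (SE, edgeR adjusted p 0.098). Leaving out P21 replicate 1 was the only omission of a library after which it still passed both. Another subunit of the pump, Atp6v0c, also lay above both ages, at 103, 96.5 and 94.7 CPM at P3, 115, 108 and 129 CPM at P10 and 94.8, 90.5 and 90.7 CPM at P21. In the list of lysosome and proton pump genes as a whole, 1 of 29 tested members was above both, beside 1.84% of all genes, and 0 below. In it, 2 had an unadjusted p under 0.05 with a higher level, beside 5.07% of all genes, and the median contrast was 0.07.

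The other 8 named genes above both ages did not pass the contrast, with edgeR adjusted p from 0.148 to 0.217. Fabp5, a fatty acid-binding protein, was at 43.2, 36.6 and 47.5 CPM at P3, 85.1, 97.4 and 47.7 CPM at P10 and 30.6, 20.8 and 15.2 CPM at P21. P10 replicate 3 lay just above the highest P3 library, while the other P10 libraries stood far higher. Its contrast was 1.32 ± 0.26 (SE, edgeR adjusted p 0.159), and Fabp5 was higher at P10 than at P21 in the pairwise test (adjusted p 0.0177).

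Ccrl2, an atypical receptor that binds the attractant chemerin, was at 111, 144 and 88.9 CPM at P3, 407, 433 and 481 CPM at P10 and 311, 399 and 300.1 CPM at P21. The step lay almost wholly between P3 and P10 (log2 1.94, edgeR adjusted p 0.0158), and the P10 libraries cleared P21 by little (log2 0.39, adjusted p 0.644). Bmp2, a secreted ligand that promotes bone formation, was at 123, 136 and 96.2 CPM at P3, 185, 214 and 260.1 CPM at P10 and 75.6, 79.2 and 128 CPM at P21. Its P10 libraries lay above all 6 others by a clear margin, and Bmp2 passed the pairwise test against P21 (log2 1.22, edgeR adjusted p 0.0429) but not against P3 (adjusted p 0.22).

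Gsto1, a glutathione transferase of the omega class, was at 131, 147 and 141 CPM at P3, 187, 202 and 172 CPM at P10 and 115, 93.8 and 95.9 CPM at P21. Hars, the histidine-tRNA synthetase of the cytoplasm, was at 94.8, 73.8 and 84.9 CPM at P3, 124, 113 and 110.4 CPM at P10 and 73.7, 55.8 and 74.2 CPM at P21. Both were highest at P10 and lowest at P21 among these ages, and both passed the test against P21 alone (edgeR adjusted p 0.00991 and 0.0298). Among genes of mitochondrial proteins, Chchd4, which folds proteins imported into the intermembrane space, was at 38.5, 34.6 and 26 CPM at P3, 51.9, 53.6 and 51.7 CPM at P10 and 28.9, 28.6 and 30.7 CPM at P21. C1qbp, a matrix protein, was at 131, 124 and 146 CPM at P3, 193, 149 and 148 CPM at P10 and 81.3, 56.5 and 96.3 CPM at P21, and Uqcr10, a subunit of respiratory complex III, at 149, 190.3 and 174 CPM at P3, 236, 281 and 192 CPM at P10 and 158, 132 and 107 CPM at P21. C1qbp and Uqcr10 passed the test against P21 (edgeR adjusted p 0.0158 and 0.0459), and Chchd4 passed neither pairwise test (0.228 against P3 and 0.0652 against P21).

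**Figure D2:**
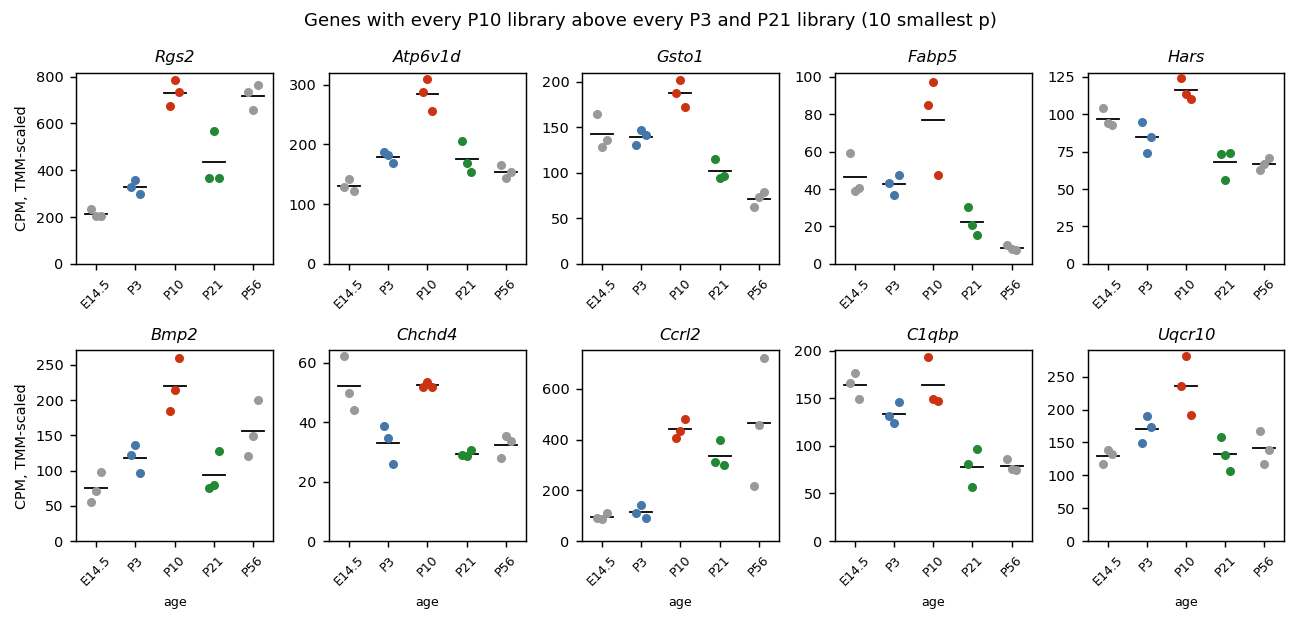
TMM-scaled CPM (y axis, from 0, a scale per panel) by age (x axis) for the 10 named genes above both ages, ordered by p; points are libraries, with the 3 of an age side by side, and bars are means. Red P10 points lie above all blue P3 and green P21 points in every panel, while Rgs2 and Ccrl2 are also high in grey P56 libraries and C1qbp and Chchd4 in grey E14.5 libraries.

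Genes below both ages included regulators of innate sensing. Irf7, the transcription factor that amplifies type I interferon genes, was at 117, 89.4 and 56.8 CPM at P3, 35.5, 38.5 and 34 CPM at P10 and 214, 98.3 and 142 CPM at P21. The P10 libraries were tightly grouped below all others, while the libraries of both neighbours were widely spread. Irf7 was lower at P10 than at P21 (log2 -2.07, edgeR adjusted p 0.0073) and had a contrast of -1.68 ± 0.29 (SE, adjusted p 0.138). Ifi204, an interferon-inducible DNA sensor, was at 163, 149 and 159.5 CPM at P3, 108, 125 and 86.3 CPM at P10 and 216, 199 and 199 CPM at P21, again with all P10 libraries lowest.

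F13a1, the A chain of coagulation factor XIII and a marker of border macrophages, was at 3148, 3084 and 2818 CPM at P3, 1715, 1673 and 2109 CPM at P10 and 3742, 2994 and 4033 CPM at P21. The highest P10 library lay well below the lowest of P3 and P21. F13a1 was lower than at P21 (log2 -0.97, edgeR adjusted p 0.0309) and had a contrast of -0.84 ± 0.17 (SE, adjusted p 0.159).

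Slc12a7, a potassium-chloride cotransporter, was at 56.3, 62.3 and 48.8 CPM at P3, 19.7, 22.7 and 34.4 CPM at P10 and 61.6, 76.5 and 47.2 CPM at P21. Icosl, the ligand of the T-cell costimulator ICOS, was at 21.1, 32.1 and 19.1 CPM at P3, 11.2, 7.86 and 15.5 CPM at P10 and 37.5, 43.1 and 46.1 CPM at P21. In both, P10 was lowest in every library, and both passed the test against P21 (edgeR adjusted p 0.0231 and 0.0114). Mllt1, a subunit of a transcription elongation complex, was at 18, 30.5 and 33 CPM at P3, 9.96, 7.9 and 6.87 CPM at P10 and 21.2, 19.2 and 22.4 CPM at P21, and Dpp9, a peptidase that restrains the NLRP1 inflammasome, at 70.7, 59.2 and 43.2 CPM at P3, 24.3, 20.1 and 23.5 CPM at P10 and 40.1, 65.2 and 47.9 CPM at P21. Mllt1 passed the test against P3 (edgeR adjusted p 0.0455) and Dpp9 passed neither (0.054 and 0.0588). The last pair, Tmem168 and the endocytic scaffold gene Itsn2, had P10 levels of 49.4, 49.5 and 61.1 CPM and 58.6, 53.9 and 76.3 CPM, against lowest neighbour values of 72.5 and 84.3 CPM. The edgeR adjusted p of these 9 genes in the contrast ran from 0.138 to 0.159, so none passed in that fit.

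**Figure D3:**
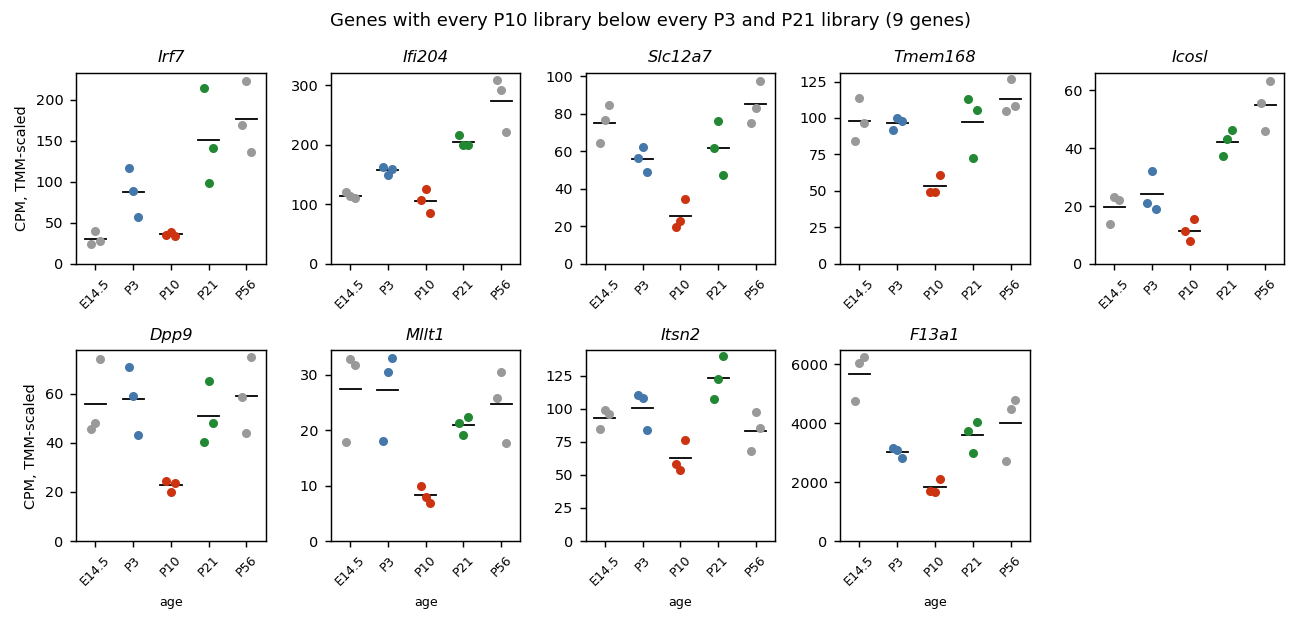
TMM-scaled CPM (y axis, from 0, a scale per panel) by age (x axis) for 9 named genes below both ages, ordered by p; points are libraries and bars are means. Red P10 points lie below all blue P3 and green P21 points in every panel, and in Irf7 and Ifi204 the grey E14.5 points lie near those of P10.

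Interferon-stimulated genes lay lower at P10 than at either neighbour, by their counts and their sum. All 25 members of the list were tested: 8 lay below both ages (32% of the list, against 1.64% of all genes) and 0 above. Of the 25, 24 had a negative contrast. An unadjusted p under 0.05 was reached in that direction by 16, beside 5.16% of all genes, and in the other by 0, beside 5.07%. The median contrast was -0.76, beside 0.03 over all genes tested, and it stayed between -0.84 and -0.71 over the 20 alternative settings. The larger part came from the P21 side: the median difference was -0.34 against P3 and -1.07 against P21. Against P3, Irf7, Trim30a, Oas1a and Ifit3b did not pass the pairwise test (edgeR adjusted p 0.118 to 0.287). In the contrast no member passed the adjusted test in edgeR. DESeq2 called 10 of the 25 lower and 0 higher, beside 173 lower and 64 higher of all 14683 genes. Summed over the list, the level was 2550, 2560 and 2380 CPM of the total count in the 3 P3 libraries, 1730, 1940 and 1580 at P10 and 3380, 2970 and 3300 at P21. The sums of P10 did not overlap those of either neighbour. E14.5 was lower still, at 1250, 1430 and 1190, and P56 was at 4080, 3860 and 3150, so P10 was not the lowest of the 5 ages. The member with a positive contrast was Mx2, at 1.24 with an SE of 2.16.

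The 8 genes below both ages included Irf7, Ifit3b, Stat2, Oas1a, Oas2, Ifi27l2a and Trim30a. STAT2 carries the signal of the type I interferon receptor, and the Oas genes encode sensors of double-stranded RNA. Ifit3b, of a family that binds viral RNA, was at 13.6, 10.8 and 25.2 CPM at P3, 4.82, 6.06 and 6.92 CPM at P10 and 29, 50.7 and 43.4 CPM at P21. Trim30a, a tripartite-motif gene, was at 143, 151 and 125 CPM at P3, 84.9, 93.6 and 76.5 CPM at P10 and 109, 153 and 181 CPM at P21. Oas1a was at 79.3, 99.2 and 81.8 CPM at P3, 59.8, 58.6 and 52.4 CPM at P10 and 129, 80.8 and 96.2 CPM at P21. The contrasts of Ifit3b, Trim30a and Oas1a were -2.14 ± 0.46, -0.76 ± 0.16 and -0.73 ± 0.17 (SE), with edgeR adjusted p of 0.159, 0.159 and 0.217. Ifit3b had the lowest contrast of the 8, and in these 3 genes the P21 mean lay further above P10 than the P3 mean. Ifitm3, a restriction factor of the endosomal membrane, had a contrast of -0.75 with a log2 difference of 0.09 against P3, and Bst2 had a contrast of -0.08.

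Promoters of 2 of these genes are shown because several members lay lower at P10 together and their upstream sequences hold matches to the letters GAAANNGAA, the core of the element bound by interferon-activated factors. In the RefSeq table (build GRCm38.p6), 16 of the 25 list members had a promoter, of 250 bases before to 50 after the start, and 11 of the 16 (68.8%) held a match on either strand. The share was 8.94% over the 10731 tested genes with a promoter, 12.3% over 187 genes below both ages and 9% over 211 above both. Of the 5 list members below both ages that had a promoter, 4 held a match. The 250 bases before the start are printed 5′ to 3′ on the gene's strand, with matches on either strand in capitals. Ifit3b lies at chr19:34607707-34607956 (plus strand), with matches beginning 187, 153 and 134 bases before the start, and Oas1a at chr5:120907526-120907775 (minus strand), with 2 overlapping matches 20 and 14 bases before it.
Ifit3b: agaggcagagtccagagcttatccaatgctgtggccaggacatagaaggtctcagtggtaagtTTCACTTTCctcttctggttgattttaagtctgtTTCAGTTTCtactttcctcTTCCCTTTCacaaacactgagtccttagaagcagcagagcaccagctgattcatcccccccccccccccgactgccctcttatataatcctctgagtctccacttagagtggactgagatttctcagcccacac
Oas1a: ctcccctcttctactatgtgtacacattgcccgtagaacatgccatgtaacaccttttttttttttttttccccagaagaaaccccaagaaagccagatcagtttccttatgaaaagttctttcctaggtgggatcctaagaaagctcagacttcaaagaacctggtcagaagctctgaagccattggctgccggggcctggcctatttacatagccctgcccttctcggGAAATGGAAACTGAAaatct

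A match describes letters in this window and no measured binding. The 3 other motifs were searched on both strands: TGANTCA (AP-1), CACGTG (E-box) and GAGGAAGT (PU.1). They were held by 6.31%, 11.8% and 3.97% of all tested genes with a promoter, by 6.16%, 12.3% and 2.84% of the genes above both ages and by 7.49%, 11.2% and 4.81% of those below. Of the 16 interferon list members with a promoter, 6 (37.5%) held TGANTCA, and 0 held CACGTG or GAGGAAGT. Of the 5 below both ages, 2 held TGANTCA. In Ifit3b it begins 88 bases before the start and is printed above in lower case. Matches of different motifs can share bases and were counted separately.

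Class I antigen presentation genes, many of which respond to interferon, lay lower at P10 than at P21 by their median difference, but not than at P3. Their median difference was 0 against P3 and -0.56 against P21, and the P10 sums, 7980 to 9590 CPM of the total, overlapped those of P3, 8200 to 9060. The P21 sums were 9590 to 11100, so the highest P10 and the lowest P21 sum round to the same value. Of 15 tested members, 2 lay below both ages (13.3%, against 1.64% of all genes) and 0 above. Among the 15, 3 had an unadjusted p under 0.05 with a lower level, beside 5.16% of all genes, and the median contrast was -0.21. Tap1, which carries peptides into the endoplasmic reticulum, was at 102, 104 and 72.7 CPM at P3, 66.3, 45.2 and 57.8 CPM at P10 and 111, 111 and 99.5 CPM at P21. All P10 libraries were lowest, with an edgeR adjusted p of 0.0413 against P21 and 0.159 in the contrast. The other gene below both was H2-Q6, which was at 1.12 to 1.38 CPM at P10 and has near-identical relatives, so its counts are uncertain.

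The markers of border macrophages, scavenger receptors among them, were lower as a sum at P10. The list of 18 summed to 24900, 24000 and 24800 CPM of the total at P3, 18100, 21000 and 21500 at P10 and 23700, 24100 and 25900 at P21. P10 thus lay below both ages in every library on the summed level, and this also held with TMM scaling. Among the more abundant members, F13a1 had means of 3017, 1832 and 3590 CPM at P3, P10 and P21. Dab2 had means of 4489, 2785 and 3493 CPM at these ages. Means of Cbr2, Folr2, Cd209f, Cd209g and Clec4n instead rose at both steps. By gene, 5 of 18 lay below both ages (27.8%, against 1.64% of all genes) and 0 above. Unadjusted p was under 0.05 with a lower level in 6 and a higher level in 1, beside 5.16% and 5.07% of all genes. The median contrast was -0.25, or -0.14 without P10 replicate 1. Its 2 sides were unequal, with a median difference of -0.105 against P3 and -0.476 against P21. The 5 below both ages were F13a1, Lyve1, Cd163, Siglec1 and Colec12. DESeq2 called 5 of the 18 lower, namely Cd163, Dab2, F13a1, Lyve1 and Siglec1, beside 173 of all 14683 genes. In bulk libraries, fewer cells of a type and less RNA per cell cannot be told apart.

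Lyve1, a hyaluronan receptor, was at 1188, 696 and 937 CPM at P3, 371, 449.5 and 421 CPM at P10 and 555, 608 and 1048 CPM at P21. The P3 libraries were widely spread, and all P10 libraries lay below every other. Cd163, the haemoglobin-haptoglobin receptor, was at 622, 558 and 592 CPM at P3, 307, 384 and 398 CPM at P10 and 740.2, 851 and 969 CPM at P21. Siglec1, a sialic acid receptor that also responds to interferon, was at 125, 70.5 and 121 CPM at P3, 57.5, 48.1 and 64.5 CPM at P10 and 120.2, 148 and 272 CPM at P21. The contrasts were -1.01 ± 0.31, -0.97 ± 0.29 and -1.28 ± 0.33 (SE), with edgeR adjusted p of 0.327, 0.307 and 0.241. Contrasts of other markers were smaller: Pf4 had -0.01, Mrc1 -0.26 ± 0.23 (SE) and Cd209f 0.03. The list of core macrophage genes had 0 of 16 above or below both ages and a median contrast of -0.02, with sums of 20700 to 22300 CPM of the total at P3, 24000 to 29200 at P10 and 35000 to 36100 at P21.

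Adhesion and integrin genes had the third summed level that lay below both ages. The 17 members summed to 1980, 1750 and 1960 CPM of the total at P3, 1590, 1470 and 1610 at P10 and 3050, 3630 and 2930 at P21. Only Itgb1, the integrin beta 1 chain, lay below both by itself (5.88% of the list, against 1.64% of all genes). It was at 556, 529 and 529 CPM at P3, 454, 492 and 487 CPM at P10 and 568, 524 and 601 CPM at P21. Unadjusted p was under 0.05 with a lower level in 7 of 17, beside 5.16% of all genes, and with a higher in 0. The median contrast was -0.44, with a median difference of -0.17 against P3 and -0.80 against P21. Itgal, an integrin chain of leukocytes, had a contrast of -1.50 and P10 libraries that overlapped P21, and Vcam1 had a contrast of -1.24 and P10 libraries that overlapped P3.

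**Figure D4:**
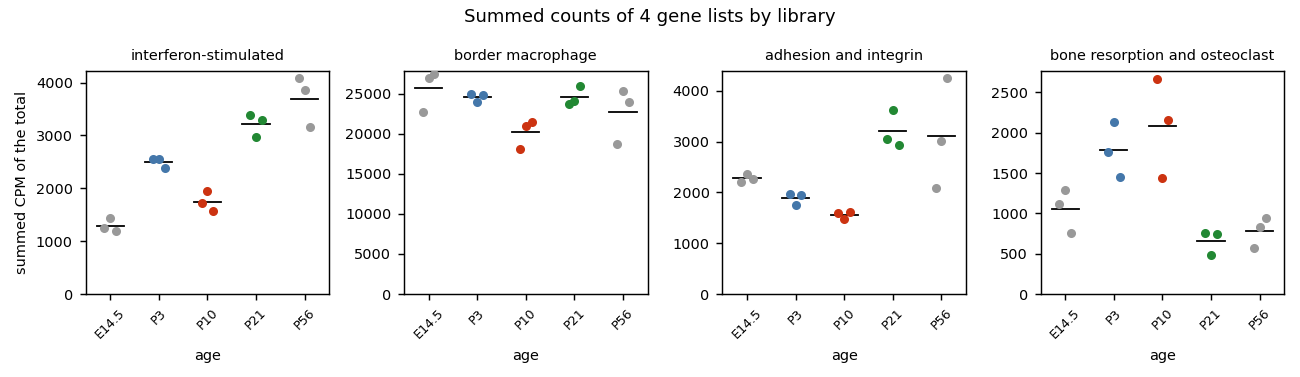
Summed CPM of the total count (y axis, from 0) by age (x axis) for 4 gene lists; points are libraries and bars are means. The red P10 points lie below blue P3 and green P21 points for the interferon-stimulated, border macrophage and adhesion lists, while for the bone resorption list P10 overlaps P3 and both lie above P21.

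Summed markers of other cell types are given beside these lists. Over 13 lists of cells that the sort could hold, 0 had P10 sums above or below both ages. In CPM of the total at P3, P10 and P21, the sums were 737 to 3300, 1040 to 3740 and 1680 to 2990 for collagen and fibroblast genes, 645 to 1780, 176 to 436 and 4.05 to 11.5 for mast cell genes, and 815 to 988, 1080 to 1450 and 1610 to 2200 for monocyte genes. They were 60.7 to 64.5, 93.1 to 122 and 223 to 372 for dendritic cell genes, 93.4 to 117, 102 to 150 and 58.4 to 96.9 for endothelial genes, and 199 to 353, 96.2 to 234 and 69.9 to 82.1 for erythroid genes. The mast cell sum, carried by Cpa3, Tpsb2, Cma1 and Mcpt4, was highest at P3 and lowest at P21. The monocyte sum was mostly Nr4a1, an immediate early gene with means of 720, 1058 and 1883 CPM, while Ly6c2 was at 0 CPM at P10 and Ccr2 at a mean of 30.9 CPM.

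Sums for the remaining cell types overlapped at P10 with a neighbour, or lay between them. Neutrophil genes ran 1.54 to 223, 0.915 to 22.7 and 0.265 to 2.5, and 5 of 12 were tested. Glia and myelin genes ran 437 to 538, 540 to 704 and 801 to 889, B cell genes 284 to 461, 669 to 734 and 780 to 915, and T and NK cell genes 155 to 179, 149 to 222 and 194 to 297. Bone formation and osteoblast genes ran 16.2 to 43.5, 22.5 to 47.6 and 31.1 to 78, and mural genes 19.6 to 31.9, 17.2 to 45.9 and 20.9 to 38.6. By gene, the lists other than bone resorption gave 0 members below both ages, beside 1.64% of all genes, and 3 above, beside 1.84%. The 3 were 1 of 9 tested members in each of the endothelial, dendritic cell and monocyte lists. They were Cldn5, at 1.2 to 1.66 CPM at P10, Xcr1, at 1.17 to 1.48 CPM, and S100a4, a calcium-binding protein also made by fibroblasts, at 34.9, 24.4 and 29.6 CPM at P3, 89.7, 71.3 and 48.6 CPM at P10 and 17.9, 18.9 and 25.7 CPM at P21. Several of these sums rested mostly on 1 gene, with P10 means of 548 CPM for Pmp22 in the glia list, 573 CPM for Ighm in the B cell list, 175 CPM for Cd4 in the T and NK cell list and 118 CPM for Egfl7 in the endothelial list. Some defining markers were near the floor, with P10 means of 0.0848 CPM for Cd79a, 0.613 CPM for Trac, 1.12 CPM for Gfap and 0.573 CPM for Pecam1. Others were not. The B cell gene Cd79b had means of 76.4, 105.5 and 108 CPM at P3, P10 and P21. The myelin genes Mbp and Mag had P10 means of 15.7 and 12.1 CPM. In the endothelial list 3 of 9 tested members had an unadjusted p under 0.05, beside 5.07% of all genes. All were higher at P10, namely Egfl7, Cldn5 and Esam. The part that cells of other types have in the P10 pattern was not tested.

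Genes of bone resorption had a median contrast of 0.74, most of it from the P21 side. The median was lowest, 0.515, without P10 replicate 1. It was 1.53 without P21 replicate 1, 1.36 without P10 replicate 2 and 1.13 without P3 replicate 1. The median difference was 0.36 against P3 and 1.38 against P21. Of 15 tested members, 2 lay above both ages (13.3%, against 1.84% of all genes) and 0 below, and 13 had a positive contrast. Among the 15, 6 had an unadjusted p under 0.05, all higher, beside 5.07% of all genes. Acp5, the tartrate-resistant acid phosphatase of osteoclasts, was at 134, 182 and 120.1 CPM at P3, 398, 254 and 238 CPM at P10 and 101, 27.3 and 31.3 CPM at P21. Atp6v0d2, an osteoclast-enriched subunit of the proton pump, was at 54.9, 60 and 49.4 CPM at P3, 180.0, 98.5 and 78.9 CPM at P10 and 33.2, 2.82 and 18.2 CPM at P21. In both genes P10 replicate 1 was far above the other P10 libraries, and P21 was lowest. Their contrasts were 1.75 ± 0.43 and 1.92 ± 0.60 (SE, edgeR adjusted p 0.22 and 0.329), and Acp5 passed the pairwise test against P21 (adjusted p 0.0458).

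Ctsk, the collagen-degrading cathepsin of osteoclasts, overlapped P3 at P10: 223, 297 and 234 CPM at P3, 734, 286 and 564 CPM at P10 and 25, 48.1 and 20.5 CPM at P21. The osteoclast fusion genes Ocstamp and Dcstamp were at 22.4, 16.6 and 27.2 CPM and 22.6, 12.4 and 30.8 CPM at P10, also overlapping P3. Receptor and regulator genes had smaller contrasts: Tnfrsf11a, the receptor for RANKL, had a contrast of -0.11 ± 0.17, and Nfatc1, the master transcription factor of osteoclasts, of 0.22 ± 0.29 (SE). The summed list was 1450 to 2130 CPM of the total at P3, 1440 to 2660 at P10 and 485 to 753 at P21. The count above both was between 2 and 7 over the settings, with 7 when P10 replicate 2 was left out.

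Phagocyte genes of developing tissue had a median contrast of 0.48. Of 14 members, 2 lay above both ages (14.3%, against 1.84% of all genes) and 0 below. Among the 14, 5 had an unadjusted p under 0.05 with a higher and 1 with a lower level, beside 5.07% and 5.16% of all genes. The 2 above both were Fabp5 and Cd63, a tetraspanin of late endosomes, at 501, 496 and 560.5 CPM at P3, 794, 906 and 818 CPM at P10 and 752, 739 and 559 CPM at P21. Their summed level was 12200 to 13400 CPM of the total at P3, 13500 to 14100 at P10 and 12100 to 13100 at P21, above both ages on this scale, but the groups overlapped once TMM factors were applied. The lipid-handling list gave 2 of 17 above both, Fabp5 and the lipid receptor Trem2, 0 below, and a median of -0.04. Trem2 was at 366, 286 and 316 CPM at P3, 392, 469.9 and 418 CPM at P10 and 317, 321 and 202 CPM at P21. P10 was highest in every library by a narrow margin over P3 replicate 1.

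Genes of energy production and of the ribosome had small contrasts, nearly all of them positive. For subunits of oxidative phosphorylation, 24 of 25 had a positive contrast. Unadjusted p was under 0.05 with a higher level in 12, beside 5.07% of all genes, and with a lower in 0. Above both ages lay 3 (12%, against 1.84% of all genes), and 0 lay below. Cox8a, of complex IV, was at 227, 255 and 259 CPM at P3, 285, 357 and 292 CPM at P10 and 238, 244 and 186 CPM at P21. Sdhb, of complex II, was at 336, 315 and 326 CPM at P3, 442, 405 and 381 CPM at P10 and 341, 326 and 284 CPM at P21. Uqcrb, of complex III, was the other, at 122, 152 and 114 CPM at P10. The median contrast was 0.34, from 0.26 against P3 and 0.46 against P21, and the exception was Atp5l at -0.46.

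For ribosomal proteins all 28 tested members had a positive contrast, the median was 0.38, and 8 had an unadjusted p under 0.05, beside 5.07% of all genes. Only Rpl4 lay above both ages (3.57%, against 1.84% of all genes). It was at 389, 385 and 381 CPM at P3, 535, 482 and 393 CPM at P10 and 380.5, 387 and 352 CPM at P21. The position of these genes turned on P10 replicate 3, the P10 library with the lowest sums: without it 15 of the 28 ribosomal and 11 of the 25 oxidative phosphorylation genes lay above both. Over all genes, leaving out that library took the counts above and below both ages to 878 and 679. Ribosomal protein genes have many processed copies, so their counts are uncertain.

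**Figure D5:**
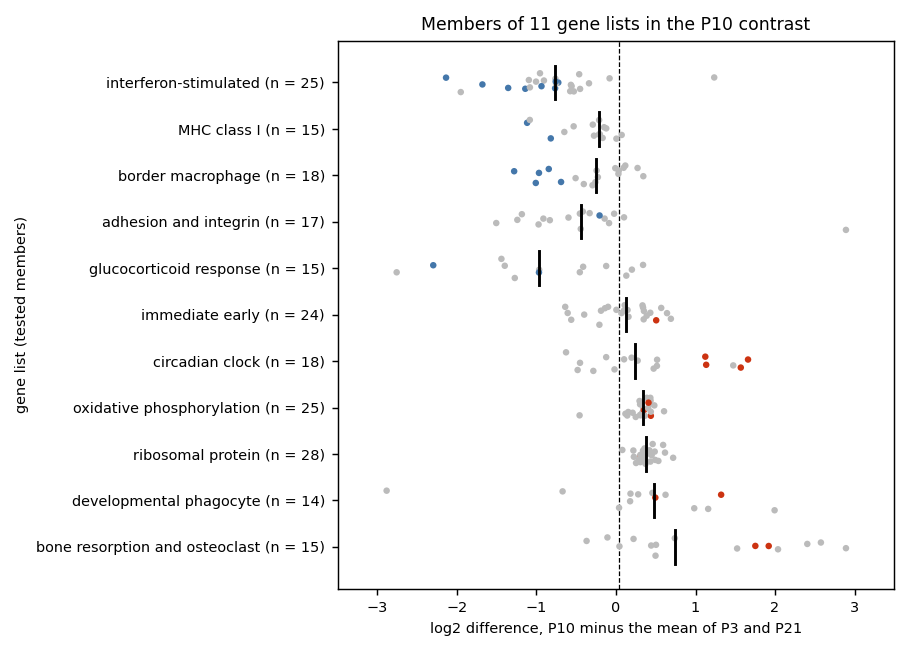
Log2 difference P10 minus the mean of P3 and P21 (x axis) for the tested members of 11 gene lists (rows, vertical jitter only for visibility); red points lie above and blue points below both ages in every P10 library, black ticks are list medians, and the dashed line is the median of all genes, 0.03. The axis stops at 3.5 and leaves out 4 members; the interferon-stimulated row lies left of the line except for 1 point, and the ribosomal row lies to its right.

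Members of the circadian clock list went both ways, with 11 positive and 7 negative contrasts. Of 18 tested members of the circadian clock list, 4 lay above both (22.2%, against 1.84% of all genes) and 0 below. However, only 2 had an unadjusted p under 0.05 with a higher level and 1 with a lower, beside 5.07% and 5.16% of all genes. The 4 above both were Dbp, Nr1d1, Ciart and Bhlhe41. Dbp, an activator of clock output, was at 20.6, 19.1 and 19.2 CPM at P3, 37, 53.6 and 48.8 CPM at P10 and 20.4, 29 and 19 CPM at P21. Nr1d1, the repressor REV-ERB-alpha, was at 9.52, 7.03 and 0.251 CPM at P3, 16.2, 9.52 and 22.8 CPM at P10 and 5.96, 0.73 and 7.27 CPM at P21. Bhlhe41, an E-box repressor, was at 9.37, 5.32 and 7.28 CPM at P3, 12.3, 14.4 and 11.6 CPM at P10 and 0.978, 3.96 and 2.6 CPM at P21. Nr1d1 cleared P3 by almost nothing, since P10 replicate 2 and P3 replicate 1 were both at 9.52 CPM, while in Dbp and Bhlhe41 all P10 libraries were clearly highest. The count of 4 fell to 3 in several settings, among them without any 1 of P3 replicates 2 and 3, P10 replicate 1 and P21 replicates 1, 2 and 3. The contrasts of Dbp, Nr1d1 and Bhlhe41 were 1.13 ± 0.43, 1.66 ± 0.78 and 1.57 ± 0.48 (SE), with edgeR adjusted p of 0.407, 0.491 and 0.308. Other members held no such position: Arntl had a contrast of -0.45, Clock of -0.48, Per1 of -0.12 and Nr1d2, Tef and Nfil3 of -0.63, 0.20 and 0.10. The list median was 0.23, and 0.14 without P3 replicate 3. The hour of collection is not given in the sources used here, and its part was not tested.

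The Ciart promoter is shown as the clearest carrier of the E-box CACGTG, the site of the CLOCK and BMAL1 pair, among the 4. Ciart, a repressor of that pair, was at 4.49, 3.67 and 4.98 CPM at P3, 6.18, 10.2 and 6.56 CPM at P10 and 3.13, 2.77 and 2.55 CPM at P21. The E-box was found in 5 of 16 clock genes with a promoter (31.2%) and in 2 of the 4 above both ages, against 11.8% of all tested genes with one. Ciart lies at chr3:95882229-95882478 on the minus strand (GRCm38.p6, RefSeq), with E-boxes in capitals 116, 58 and 44 bases before the start.
Ciart: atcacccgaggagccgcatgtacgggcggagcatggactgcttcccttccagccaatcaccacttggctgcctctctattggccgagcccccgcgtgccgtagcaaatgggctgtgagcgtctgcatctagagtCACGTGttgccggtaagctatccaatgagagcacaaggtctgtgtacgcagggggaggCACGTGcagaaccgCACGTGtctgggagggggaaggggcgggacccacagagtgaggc

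Glucocorticoid-response genes had a median contrast of -0.965, nearly all of it from the P21 side. The median was -0.51 without P3 replicate 1 and -0.43 with a filter of 5 CPM in 3 libraries. The median difference was -0.10 against P3 and -1.34 against P21. Of 15 members, 2 lay below both (13.3%, against 1.64% of all genes), Fkbp5 and Cd163, and 0 above. Among the 15, 6 had an unadjusted p under 0.05 with a lower and 2 with a higher level, beside 5.16% and 5.07% of all genes. Fkbp5, a co-chaperone of the glucocorticoid receptor, was at 20.2, 18.8 and 19.9 CPM at P3, 12.8, 11.5 and 9.46 CPM at P10 and 71.4, 193 and 204 CPM at P21. P10 was lowest by a small margin toward P3 and by a wide one toward P21, where the test was passed (log2 -3.79, edgeR adjusted p 0.0142). Tsc22d3, which encodes the leucine zipper protein GILZ, had a contrast of -1.44 with an edgeR adjusted p of 0.098 and a difference of 0.04 against P3.

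Immediate early genes, which respond within minutes and also to cell isolation, lay between or beside the neighbours. Of 24 members, 1 was above both (4.17%, against 1.84% of all genes) and 0 below. Among the 24, 8 had an unadjusted p under 0.05 with a higher and 1 with a lower level, beside 5.07% and 5.16% of all genes. The median was 0.13. Ier3 was at 1304, 1274 and 1031 CPM at P3, 1451, 2117 and 1849 CPM at P10 and 1423, 1261 and 1349 CPM at P21. Their summed level was 16200 to 18800 CPM of the total at P3, 26800 to 32000 at P10 and 31000 to 34200 at P21. The chemokine and cytokine list had 1 of 29 above both and 0 below, with a median of 0.16. The gene above both was Ccl3, a chemokine of myeloid cells, at 183, 358 and 223 CPM at P3, 411, 373 and 377 CPM at P10 and 122, 240.5 and 126 CPM at P21, with P3 replicate 2 close to the P10 range.

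The other lists gave 0 or 1 member at either side, beside 1.84% of all genes above and 1.64% below both ages. Heat shock and ER chaperone genes had 1 of 17 above both (Hspd1, the mitochondrial chaperonin) and a median of -0.09, and microglia genes 1 of 10 above both (P2ry13, a purine receptor) and a median of -0.002. Below both lay 1 of 22 DNA replication genes (Uhrf1, which maintains DNA methylation), 1 of 16 cholesterol synthesis genes (Srebf2, their transcription factor), 1 of 15 iron and heme genes (Slc11a1, a phagosomal metal transporter) and 1 of 10 alternative activation genes (Il4ra, the IL-4 receptor), with medians of -0.06, -0.33, -0.08 and -0.06. At P10, Uhrf1 was at 32.2, 18 and 28.3 CPM, Slc11a1 at 128, 168 and 187 CPM and Il4ra at 181, 214 and 217 CPM. No member lay above or below both ages in the lists of MHC class II (median -0.24), complement (-0.27), mitosis (0.18), glycolysis and hypoxia (0.06), matrix degradation (0.12), TGF-beta response (-0.14) and sex-linked genes (-0.065). The sums of MHC class II genes ran in 1 direction, 220 to 418 CPM of the total at P3, 758 to 1830 at P10 and 5800 to 8970 at P21.

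The ages that the choice did not use, E14.5 and P56, differed among the members. Irf7 was at 24.8, 40.5 and 27.4 CPM at E14.5 and 169.5, 223 and 137 CPM at P56, so its E14.5 libraries overlapped those of P10 and its P56 libraries those of P21. F13a1 was at 4736, 6035 and 6240 CPM at E14.5, above every library of P3, P10 and P21, and at 2718, 4484 and 4791 CPM at P56. Fabp5 was at 59.2, 39 and 40.5 CPM at E14.5, where it overlapped P3 and P10, and at 10.3, 7.73 and 7.5 CPM at P56, below every other age.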

How the data were processed

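The values were raw read counts per gene symbol, deposited by the authors as whole numbers with no normalization. Per the submitters' processing notes, the tools were bcl2fastq 2.18, STAR 2.7.8a and featureCounts 2.0.2. The genome build, annotation, strand setting and treatment of multi-mapping reads are not given in the sources used here. Per the labels' protocols, cDNA was made from 500 pg of RNA and 150 pg of cDNA entered Nextera XT.

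All 15 libraries were fitted with edgeR 4.0.16 in R 4.3.3, with 1 coefficient per age, TMM scaling, filterByExpr by age (14683 of 53546 symbols) and robust quasi-likelihood F-tests, and p was adjusted by Benjamini-Hochberg over all genes tested. The script was tested on simulated data. DESeq2 1.42.0, limma 3.58.1 (voom), other scalings, filters and subsets of libraries were alternatives. Sums over a list are CPM of the total count without TMM. SE are from the fit, and counting has no molecular identifiers named, so depth covers counting error only.

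Named genes were those of smallest contrast p among genes above or below both ages at 20 CPM or more, 10 per direction, because none passed the adjusted test, with up to 4 members per list that lay above or below both, and some fixed markers. Of the 10 below both ages, 9 are described, and some items are not reported here. Predicted models, ribosomal and mitochondrial genes were left out of the 10. The members, the 40 lists and the tests were chosen with earlier results of these data known. Promoters were matched by symbol to RefSeq (GRCm38.p6).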

Additional observations from a re-analysis of the deposited data

How the results depend on the processing

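The fit of all 15 libraries called 0 genes higher and 0 lower in the contrast, and 2 higher and 0 lower in both pairwise tests. In that order the counts were 1, 1, 2 and 3 with a filter of 5 CPM in 3 libraries, 64, 173, 6 and 50 with DESeq2, 6, 0, 6 and 2 with limma voom, 8, 22, 1 and 5 with no filter, and 2, 9, 2 and 5 with only the 12 libraries of 1 project. Of the genes called in the contrast, those above and below both ages were 1 and 0, 26 and 91, 6 and 0, 4 and 13, and 2 and 7 under the same 5 settings. The 2 genes past both tests became 1 with RLE size factors and 1 with no robust estimation, and 0 with only the 9 libraries and 0 when a log2 contrast of at least 1 was added. The cause of these differences was not tested.

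With the replicate block in the 12 libraries, the contrast called 0 genes higher and 0 lower, and both pairwise tests called 2 higher and 1 lower. Deviations of 18 same-numbered pairs correlated at -0.055 to 0.062, 0 of them over 0.1. Yet 9 of 12 libraries had a higher mean correlation with their own number. With 3 libraries per age, these values do not settle whether the numbers pair the libraries.

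Leaving out each of the 9 libraries in turn gave 0 to 2 genes higher and 0 to 1 lower in the contrast, with 0 to 1 called above both and 0 to 0 called below both, 0 to 1 higher and 0 to 4 lower in both pairwise tests, and 384 to 878 genes above and 300 to 679 below both ages called or not. The omission of a library also lowers the number of values that must be exceeded. The contrast calls came without P21 replicate 2 (1 higher) and without P21 replicate 3 (2 higher, 1 lower). The medians of the interferon-stimulated, border macrophage, adhesion, bone resorption, clock, oxidative phosphorylation and ribosomal lists kept their sign in all 20 settings, though those of the border macrophage, clock and bone resorption lists moved by over 1.5 times without 1 library (to -0.139, to 0.135 and to as much as 1.53), and every named gene but Ostm1 kept the sign of its contrast wherever it was tested.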

Other observations

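Further genes below both ages, chosen after their values were seen, did not pass the contrast over all 15 libraries but did when the 3 P56 libraries were left out. Alox5ap, the activator of 5-lipoxygenase in leukotriene synthesis, was at 209, 184 and 180.0 CPM at P3, 114, 107 and 106 CPM at P10 and 228, 211 and 324 CPM at P21. Arhgef6, an exchange factor for Rac and Cdc42, was at 182, 161 and 181 CPM at P3, 117, 83.4 and 80.4 CPM at P10 and 173, 202 and 199 CPM at P21. Coro1a, an actin-binding protein of leukocytes, was at 627, 595 and 656 CPM at P3, 290.2, 314 and 321 CPM at P10 and 353, 372 and 430.0 CPM at P21. The P10 libraries were lowest in all of them, and Coro1a was nearer to P21 than to P3. Their edgeR adjusted p were 0.159, 0.238 and 0.246 over all 15 libraries, and 0.036 in each of Alox5ap and Arhgef6 and 0.0276 in Coro1a over the 12 libraries without P56. These calls were lost with the replicate block in the same 12 libraries, where 0 genes passed the contrast in either direction by edgeR (740 higher and 876 lower at an unadjusted p under 0.05), and with only the 9 libraries, where 0 passed (644 and 729).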
